A study of Homo sapiens with 8 samples.

Results

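Chromosome 17 of U2OS cells was described through all peaks that 4 genome-wide peak lists hold there, in hg19 coordinates. Members were chosen by position alone: each peak on chromosome 17 was taken, except those in 2 short intervals that are not described here. This gave 951 ORCA peaks of early G1, 849 of mid G1, 83 of late G1 and 5024 MeDIP peaks, together 6907 of the 96832 peaks on chromosomes 1 to 22 and X. The intervals held a further 9 early, 2 mid, 0 late and 42 MeDIP peaks. The lists come from U2OS, a human osteosarcoma cell line. ChIP-seq for ORCA was done in cells synchronized at the early, the mid or the late stage of G1. MeDIP-seq, for methylated DNA, was done in cells for which the labels give no stage. Each of these 4 groups was 1 sample with 1 input, no group had a replicate, and the inputs were not analysed here.

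ORCA (LRWD1) carries WD repeats and binds the origin recognition complex, the assembly that marks where DNA replication can start and on which the helicase is loaded during G1. It is also known for its presence at heterochromatin, where it binds repressive histone marks. MeDIP pulls down DNA fragments rich in methylated cytosine, so that a MeDIP peak marks a stretch of dense methylated CpG and not the methylation level of single sites.

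Chromosome 17 was among the densest chromosomes for all 4 lists. It is 3.10% of the span of the chromosomes used and held 8.92% of the early, 8.21% of the mid, 6.25% of the late and 6.75% of the MeDIP peaks. This came to 12.2 early peaks per Mb against 3.97 on the other chromosomes pooled, 10.9 mid peaks against 3.88, 1.06 late peaks against 0.509 and 64.3 MeDIP peaks against 28.4. Among 23 chromosomes it ranked 2 in early and mid ORCA density, behind chromosome 22, and it ranked 5 in late ORCA and 3 in MeDIP density. The ratio of its density to that of the other chromosomes was 3.07 for early, 2.80 for mid, 2.09 for late ORCA peaks and 2.26 for MeDIP peaks. The chromosome had been proposed with such values known, and they stand here as a description. Neither read depth nor the settings of the peak caller are given in the sources used here, and the shorter late list cannot be read as less binding.

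The surplus of early and mid ORCA peaks lay on the long arm. The arms were told apart by the widest stretch without a peak in any list, 3.06 Mb from 22205451 to 25263006, which lies in the part of the chromosome that holds the centromere. The short arm, 22.2 Mb long, held 64 early peaks (2.88 per Mb, interval 2.22 to 3.68), and the long arm, 55.9 Mb, held 887 (15.9 per Mb, interval 14.8 to 16.9). In mid G1 the short arm held 65 peaks (2.93 per Mb, interval 2.26 to 3.73) and the long arm 784 (14.0 per Mb, interval 13.1 to 15.0). Intervals of densities are exact 95% Poisson intervals, and like all intervals here they cover counting error only and treat neighbouring peaks as independent. The long arm was thus 5.50 times as dense as the short arm in early G1 (interval 4.27 to 7.09) and 4.79 times in mid G1 (interval 3.72 to 6.17). By covered bases the ratios were smaller, 2.99 in early and 2.84 in mid G1. Early peaks had a median width of 622 bp on the short and 577 bp on the long arm, and mid peaks of 647 and 580 bp. Of the late peaks 20 lay on the short and 63 on the long arm, a ratio of densities of 1.25 whose interval, 0.757 to 2.07, holds 1. This ratio rested on 1 bin, from 21 to 22 Mb, which held 11 of the 20 short-arm peaks, and without it the ratio was 2.65. With that bin, the short arm held 0.901 late peaks per Mb (interval 0.550 to 1.39), against 0.509 on the other chromosomes.

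Methylated sites did not share the arm pattern of early and mid ORCA peaks. The short arm held 1524 MeDIP peaks (68.6 per Mb) and the long arm 3500 (62.6 per Mb), a ratio of 0.912 (interval 0.859 to 0.969). The median MeDIP peak was 920 bp wide on the long and 788 bp on the short arm, so that they covered 7.498% of the long and 6.67% of the short arm. The order of the arms therefore turned with the measure: by covered bases the long arm was ahead by 1.12 times.

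**Figure D1:**
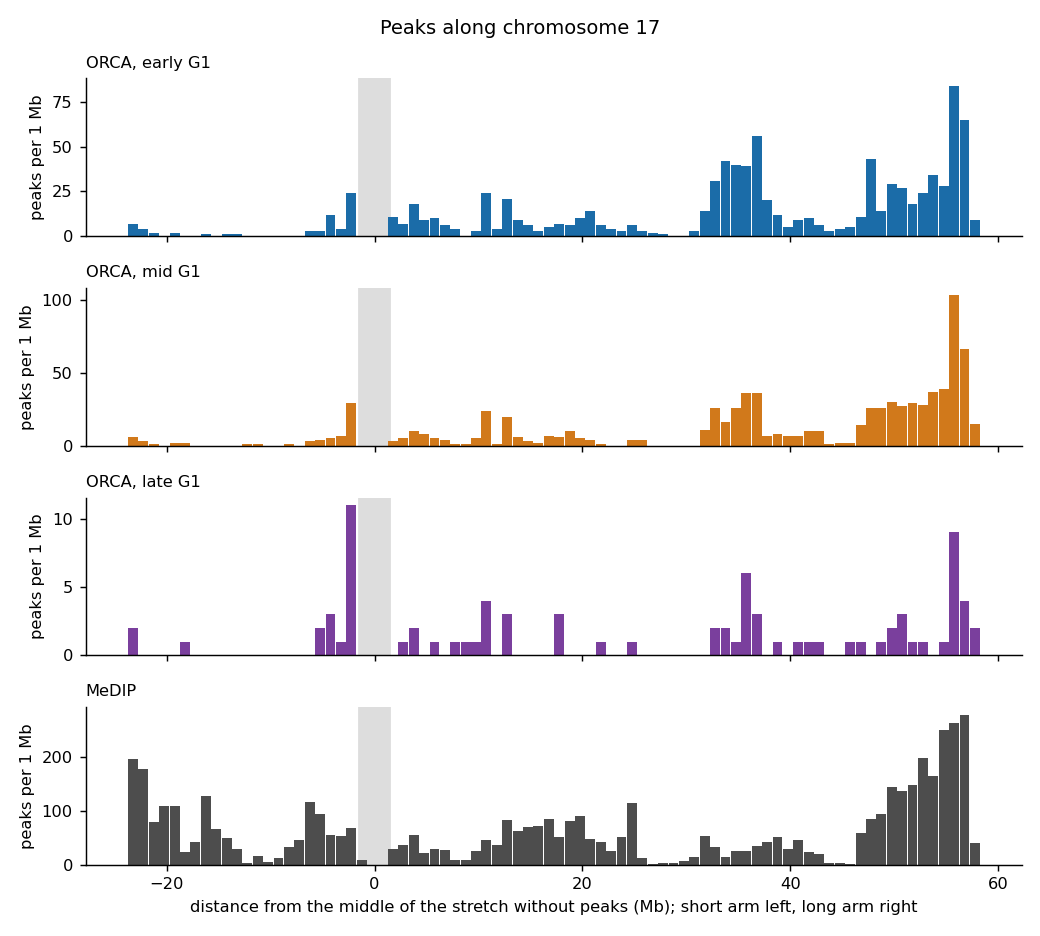
Peaks per 1 Mb bin along chromosome 17 for the 4 lists; the x axis is the distance in Mb from the middle of the stretch without peaks (grey), with the short arm on the left. MeDIP bars are high at both ends of the chromosome, up to 196 peaks in a bin of the short arm and 278 in a bin of the long arm, while the early and mid ORCA bars are low over most of the short arm.

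The plot of peaks along the chromosome shows where these differences arose. Of the 23 bins of 1 Mb on the short arm, 11 held no early peak and 7 held no ORCA peak of any stage, although these 7 bins held 290 MeDIP peaks. Of the 57 bins on the long arm, 3 held no early peak and 2 no ORCA peak. The first Mb of the short arm held 196 MeDIP peaks against 7 early, 6 mid and 2 late ORCA peaks. At the other end, the bin from 79 to 80 Mb held 262 MeDIP peaks against 84 early, 103 mid and 9 late ORCA peaks, and the bin from 80 to 81 Mb held 278 against 65, 66 and 4. Both ends of the chromosome were rich in methylated sites, and the long-arm end held more ORCA than the short-arm end. Among 2967 bins of all chromosomes used, the first Mb ranked 296 in early and 339 in mid ORCA peaks. The bin from 79 to 80 Mb ranked 12 and 11.

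Set beside bins of other chromosomes with as many MeDIP peaks, bins of the long arm held more early peaks, and those of the short arm held about as many or fewer. Bins with 100 to 200 MeDIP peaks held a median of 4 early peaks over 118 bins of other chromosomes, of 2.5 over 6 bins of the short arm and of 25.5 over 6 bins of the long arm. The long-arm bins ranged from 6 to 34 early peaks, and the highest of the short-arm bins held 7. In bins with 25 to 50 MeDIP peaks the medians were 2 over 378 bins elsewhere, 0 over 4 short-arm bins and 9.5 over 18 long-arm bins. In bins with 50 to 100 they were 3 over 252 bins, 3 over 7 bins and 10 over 15 bins.

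Within an arm, early and mid counts followed each other more closely than either followed methylation. Across the 57 bins of the long arm, Pearson's r between early and mid counts was 0.92 and Spearman's rho 0.90. Between mid and MeDIP counts r was 0.78 and rho 0.63, and between early and MeDIP counts 0.62 and 0.59. Late counts gave r = 0.73 and rho = 0.58 with early, and r = 0.79 and rho = 0.61 with mid counts, so that their rho was near those of early and mid counts with MeDIP. Across the 23 bins of the short arm, early and mid counts gave r = 0.94 and rho = 0.77, early and late counts r = 0.95 and rho = 0.63, and early and MeDIP counts r = 0.25 and rho = 0.67. Bins of a list share their library and neighbouring bins are alike, so these values are descriptions of this chromosome with no test.

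The chromosome was then divided into 8 segments, A to H, at borders set after seeing the counts per bin. The borders lie at 17, 50, 55, 62, 71 and 79 Mb and at the stretch without peaks, with A and B on the short arm. The segments with the highest ORCA density differed in methylation and in the form of their peaks.

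Segment A, the first 17 Mb, was rich in MeDIP and nearly empty of ORCA. It held 1128 MeDIP peaks and 18 early, 17 mid and 3 late ORCA peaks. This is 22.5% of the MeDIP peaks of the chromosome and 1.89% of its early peaks. Of its MeDIP peaks, 9 met an ORCA peak of any stage (0.798%, interval 0.420 to 1.51), against 12.3% over the chromosome. The longest ORCA-free stretch of the short arm lay here, from 12835106 to 15540332, 2.71 Mb with 46 MeDIP peaks.

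Segment B, from 17 Mb to the stretch without peaks, held the rest of the short-arm ORCA: 46 early, 48 mid and 17 late peaks in 5.21 Mb. Its peaks were wide. The median was 1052.5 bp in early G1 against 577 bp over the chromosome, and 8 of the 11 early peaks of at least 3 kb were in it. This segment also held 20.5% of all late peaks of the chromosome.

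Segment E, from 55 to 62 Mb, was dense in ORCA, with a MeDIP cover below that of the chromosome as a whole (7.26%) and above the median of the 22 other chromosomes (2.85%). It contained 242 early, 158 mid and 14 late peaks in 7 Mb, or 34.6 early and 22.6 mid peaks per Mb, beside 229 MeDIP peaks that covered 3.997% of it. This made 106 early peaks for each 100 MeDIP peaks, against 18.9 over the whole chromosome with the left-out intervals and a median of 11.5 over the 22 other chromosomes. Early peaks had a median width of 845 bp and mid peaks of 893.5 bp here. Early peaks outnumbered mid peaks by 1.53 to 1 in segment E, and by 1.43 to 1 in segment C, from the stretch without peaks to 50 Mb.

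Segments G and H, from 71 and 79 Mb, were dense in both. Segment G held 217 early and 242 mid peaks in 8 Mb, with MeDIP peaks over 18.0% of its bases. Segment H, the last 2.17 Mb, held 158 early, 184 mid and 15 late peaks, or 72.9 early and 84.9 mid peaks per Mb, with MeDIP peaks over 43.8% of its bases. Peaks were narrow in both, with early medians of 530 and 491.5 bp and mid medians of 548 and 534 bp. Mid peaks outnumbered early peaks in both. Segment D, from 50 to 55 Mb, was poor in all lists, with 6 early, 0 mid, 0 late and 28 MeDIP peaks, and the longest ORCA-free stretch of the chromosome, 3.64 Mb from 51026541 to 54663360, lay in it. Segment F, from 62 to 71 Mb, was near segment C in ORCA density, with 7.22 early and 6.78 mid peaks per Mb and 6 late peaks in all.

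**Figure D2:**
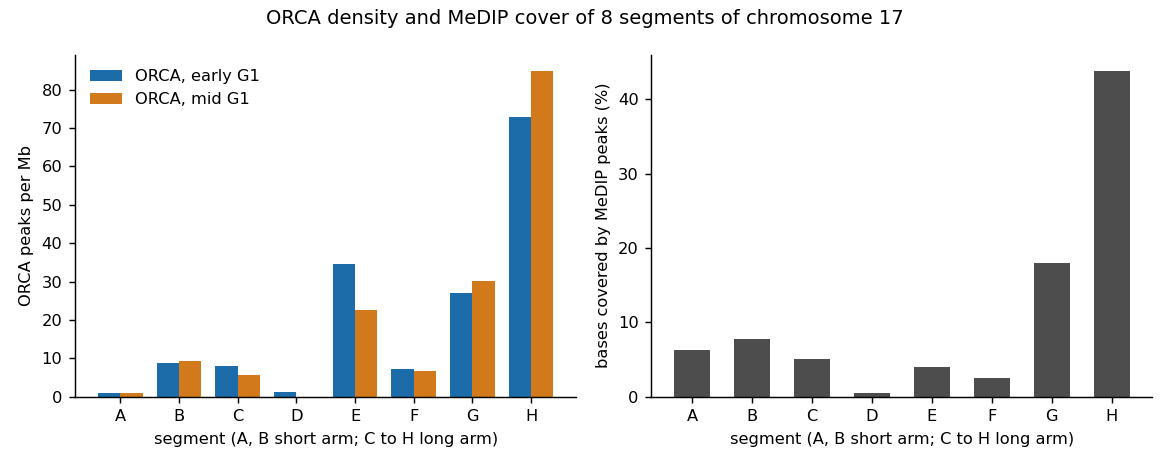
ORCA peaks per Mb in early and mid G1 (left, bars from 0) and percentage of bases covered by MeDIP peaks (right) in 8 segments of chromosome 17. Segment E has 34.6 early peaks per Mb with 3.997% MeDIP cover, segment A has 1.06 early peaks per Mb with 6.33%, and segment H has 72.9 with 43.8%.

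Most ORCA peaks of chromosome 17 overlapped no peak in the lists of the other stages. Of the 951 early peaks, 203 overlapped a mid peak by at least 1 bp (21.3%, interval 18.9 to 24.1), where 32.6% did so in the whole list. In mid G1, 212 of 849 peaks overlapped an early peak (24.97%), where 32.6% did in the whole list. In no other stage were 745 early peaks (78.3%, whole list 66.2%), 620 mid peaks (73.0%, whole list 65.4%) and 24 late peaks (28.9%, whole list 20.6%). Intervals of shares are 95% Wilson intervals.

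On the other chromosomes pooled the early share was 33.7%, and chromosome 17 differed from it by -12.4 points (Newcombe interval -15.0 to -9.48). Chromosomes 7 and 8 carry much of that pool, with early shares of 55.1% and 49.7%. Without them, which was tried after the data had been seen, the other chromosomes had 25.6% and the difference was -4.25 points (interval -6.95 to -1.35). In the mid list the difference from the other chromosomes was -8.26 points (interval -11.2 to -5.10), and without chromosomes 7 and 8 it was -0.628 points (interval -3.62 to 2.56), an interval that holds 0. Among 23 chromosomes, ordered from the highest share, chromosome 17 ranked 19 for early peaks in mid and 12 for mid peaks in early G1.

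The difference in the early share lay among the higher-scoring peaks. The score is the caller's own value per peak and orders peaks within a list. With the whole early list cut into 5 equal parts by score, 13.2% of the chromosome 17 peaks in the lowest part met a mid peak, against 16.3% on the other chromosomes and 11.8% without chromosomes 7 and 8. In the next to highest part 18.7% did (interval 14.0 to 24.4), against 36.8% and 30.3%. In the highest part 56.6% did (interval 48.2 to 64.7), against 72.4% and 65.3%.

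**Figure D3:**
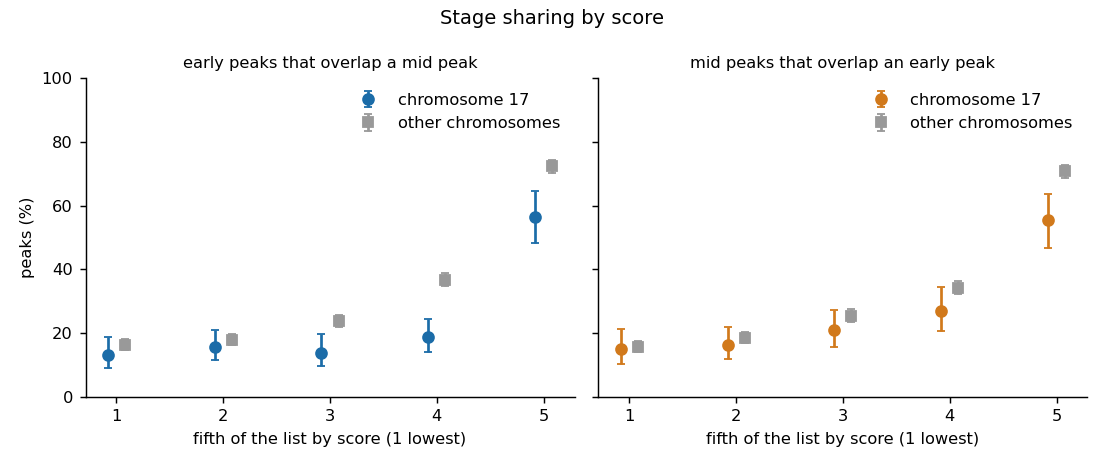
Share of early peaks that overlap a mid peak (left) and of mid peaks that overlap an early peak (right), in percent, in 5 equal parts of the whole list by score, for chromosome 17 and the other chromosomes; bars are 95% Wilson intervals. For early peaks the intervals of chromosome 17 lie below those of the other chromosomes in the upper 3 parts, with 56.6% against 72.4% in the highest.

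Sharing also differed along the chromosome. It was highest in segment B, on the short-arm side of the stretch without peaks. There 23 of 46 early peaks met a mid peak (50%, interval 36.1 to 63.9) and 26 of 48 mid peaks an early peak. In segment C, on the other side of that stretch, 41 of 199 early peaks met a mid peak (20.6%, interval 15.6 to 26.8). In segment A 5 of 18 did (27.8%, interval 12.5 to 50.9). Early peaks met a mid peak in 10 of 65 cases in F (15.4%, interval 8.58 to 26.1), in 35 of 217 in G (16.1%, interval 11.8 to 21.6), in 33 of 158 in H (20.9%, interval 15.3 to 27.9) and in 56 of 242 in E (23.1%, interval 18.3 to 28.8). The differences from E held 0 in both dense distal segments, with -7.01 points in G (interval -14.2 to 0.316) and -2.25 points in H (interval -10.3 to 6.27). In mid G1, 37.97% of peaks overlapped an early peak in segment E against 14.5% in G and 17.4% in H, differences from E of -23.5 points (interval -32.2 to -14.8) and -20.6 points (interval -29.7 to -11.1). Segment E had wider peaks than G and H, and the part of width in this was not tested.

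The late list carries another caller label than the early and mid lists, and what the label means was not stated, so that for late widths, scores and shares the stage and the calling cannot be told apart. Of the 83 late peaks, 55 overlapped a mid peak (66.3%, whole list 70.3%) and 43 an early peak (51.8%, whole list 65.4%). The share with an early peak differed from that of the other chromosomes by -14.5 points (interval -25.4 to -3.77), and by -8.999 points without chromosomes 7 and 8 (interval -20.1 to 1.97). With the early and mid lists at the length of the late list, 42.2% of late peaks overlapped a mid and 33.7% an early peak, and the early difference was -4.82 points (interval -14.5 to 6.20). Without the widest 5% of each list these shares were 50% and 35.9%. In turn, 44 early peaks (4.63%, whole list 8.91%) and 60 mid peaks (7.07%, whole list 9.53%) overlapped a late peak.

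Methylation was found at more mid than early ORCA peaks. A MeDIP peak overlapped 345 of the 951 early peaks (36.3%, interval 33.3 to 39.4, whole list 35.3%), 498 of the 849 mid peaks (58.7%, interval 55.3 to 61.9, whole list 48.6%) and 43 of the 83 late peaks (51.8%, interval 41.2 to 62.2, whole list 47.9%). The mid share was 22.4 points above the early share (interval 17.8 to 26.8), and on the other chromosomes it was 12.5 points above (interval 11.1 to 13.9). At the length of the late list, 83 peaks per stage, the mid share was 14.5 points above the early share, with an interval of -0.242 to 28.3 that holds 0. With 1 sample per stage this compares 2 lists, and no spread between samples was available.

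The mid share stood 11.0 points above that of the other chromosomes (interval 7.51 to 14.4), and 15.7 points above without chromosomes 7 and 8 (interval 12.2 to 19.2). With the left-out intervals it ranked 3 among 23 chromosomes, behind chromosomes 13 (69.5%) and 7 (63.2%). Against chromosome 22, the densest in ORCA, the mid difference was 4.70 points, with an interval of -0.0879 to 9.47 that holds 0. The early difference from chromosome 22 was -5.42 points (interval -9.97 to -0.857). Part of the mid difference from the other chromosomes came from the end of the long arm. Without segment H the mid share of chromosome 17 was 51.0%, against 42.9% on the other chromosomes without 7 and 8. Against all other chromosomes the difference without segment H was 3.33 points, with an interval of -0.598 to 7.24. Segment H was left out after the data had been seen, and no such part was left out of the other chromosomes. At the length of the late list, which keeps the 83 highest-scoring mid peaks here, the order turned, to -1.69 points. In the higher-scoring 50% of each list it was 4.74 points (interval -0.227 to 9.61), and with mid peaks weighted to late peak widths 2.85 points. The early share was 1.13 points above the other chromosomes (interval -2.01 to 4.38), and 9.02 points above without chromosomes 7 and 8 (interval 5.84 to 12.3). Without segment H the early difference was -6.77 points (interval -9.94 to -3.40), without segment E 6.46 points (interval 2.77 to 10.2), and weighted to late peak widths -6.93 points, so that its direction depended on these choices. The late share was 4.18 points above the other chromosomes (interval -6.77 to 15.0), and 14.9 points above without chromosomes 7 and 8 (interval 3.82 to 25.9).

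By segment, the share of early peaks with a MeDIP peak went from 16.9% in F, 20.7% in E and 23.6% in C to 44.7% in G and 75.3% in H. For mid peaks it was 34.4% in F, 37.97% in E, 54.0% in C, 63.6% in G and 86.4% in H. Segments E and H, each dense in ORCA, thus differed by 54.7 points in early G1 (interval 45.5 to 62.3) and by 48.4 points in mid G1 (interval 38.8 to 56.8). MeDIP peaks covered 3.997% of E and 43.8% of H, and how much of the difference follows from this cover was not tested. The mid share was above the early share in each of the 7 segments with mid peaks, by 11.0 to 30.3 points, with intervals that excluded 0 in C, E, F, G and H and held 0 in A and B.

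**Figure D4:**
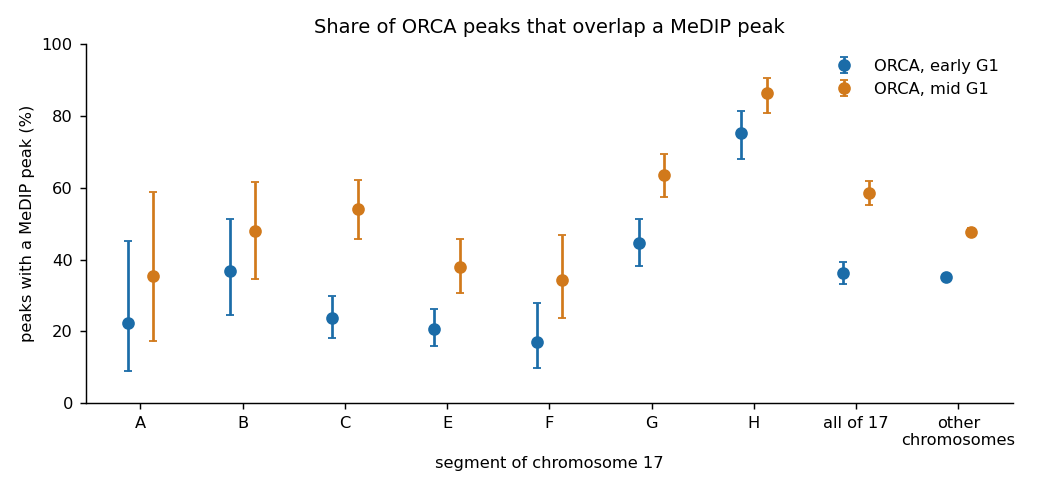
Share of early and mid ORCA peaks that overlap a MeDIP peak, in percent with 95% Wilson intervals, in 7 segments of chromosome 17 (segment D held no mid peak), on all of it and on the other chromosomes. The shares are 20.7% and 37.97% in segment E and 75.3% and 86.4% in segment H, and the mid point lies above the early point in each.

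Merging overlapping peaks of the 3 ORCA lists gave 1594 regions on chromosome 17, which separates regions with peaks of a single list from shared regions. Of the 745 early-only regions 29.1% met a MeDIP peak (interval 26.0 to 32.5, whole series 23%), and of the 620 mid-only regions 57.7% did (interval 53.8 to 61.6, whole series 43.2%). The difference was 28.6 points (interval 23.4 to 33.6), and on the other chromosomes 19.5 points (interval 17.9 to 21.1). Early-only and mid-only regions were nearly equally wide, with medians of 549 and 546 bp. In segment C the shares were 14.6% of 158 early-only and 52.1% of 94 mid-only regions, the widest gap among the segments. In segment E they were 11.3% of 186 and 28.1% of 96, and in segment H 73.4% of 124 and 86.5% of 148. The 150 regions with early and mid but no late peaks met MeDIP in 62% (whole series 58.2%), and 7 of the 24 late-only regions did (29.2%, whole series 19.7%). Of the 3 regions with early and late but no mid peaks 2 met a MeDIP peak (whole series 45.3%), and of the 16 with mid and late but no early peaks 6 did (37.5%, whole series 37.3%).

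In early G1, the MeDIP share did not rise steadily with width up to 1500 bp on chromosome 17 as it did elsewhere. On the other chromosomes the early MeDIP share went from 19.5% of peaks under 500 bp through 31.5% at 500 to 750 bp and 43.1% at 750 to 1000 bp to 55.2% at 1000 to 1500 bp. On chromosome 17 the shares of the same classes were 37.7% (interval 32.8 to 42.9), 34.8%, 27.7% and 36.6% (interval 27.5 to 46.7), and the 32 peaks of 1500 to 3000 bp had 59.4% (interval 42.3 to 74.5). Without chromosomes 7 and 8 the other chromosomes had 19.1%, 28.5%, 34.4% and 42.8% in the same classes. The chromosome 17 intervals at 750 to 1000 bp (20.9 to 35.8) and at 1000 to 1500 bp hold 34.4% and 42.8%. Below 750 bp 36.28% of 678 early peaks met a MeDIP peak, and from 750 bp on 36.26% of 273, against 24.9% and 53.9% elsewhere. Segments E and H held much of both groups: 147 of the 273 wider early peaks lay in E, where 24.5% of them met MeDIP, and 145 of the 678 narrower ones lay in H, where 76.6% did. Without E and H the shares were 27.6% and 48.7%.

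**Figure D5:**
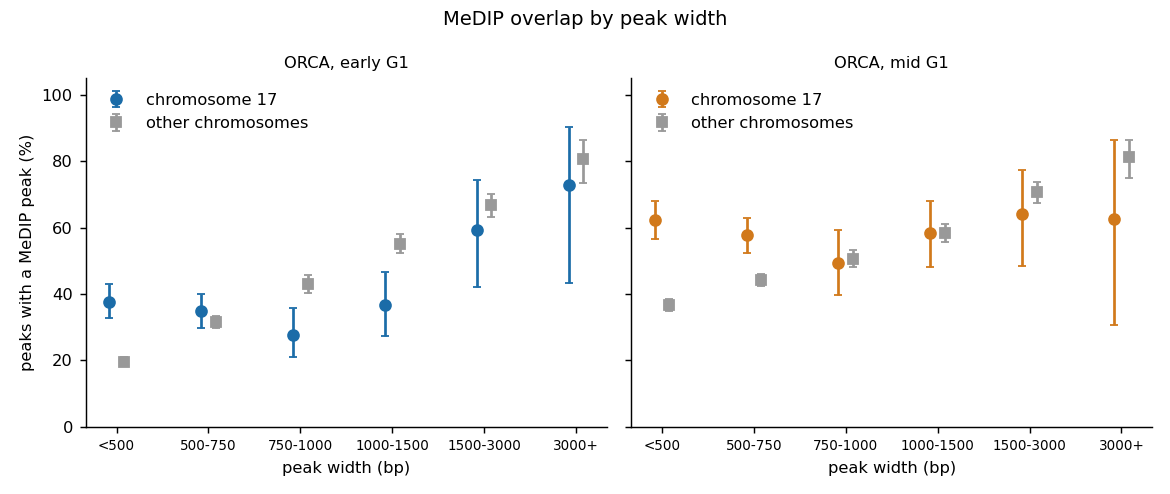
Share of early (left) and mid (right) ORCA peaks that overlap a MeDIP peak, in percent with 95% Wilson intervals, by peak width in bp, on chromosome 17 and on the other chromosomes. For early peaks under 500 bp the share is 37.7% on chromosome 17 and 19.5% elsewhere, and for those of 1000 to 1500 bp it is 36.6% and 55.2%. Without chromosomes 7 and 8 the values elsewhere were 19.1% and 42.8%.

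In width itself the chromosome was near the rest. Median widths were 577 bp in early, 583 bp in mid and 919 bp in late G1, against 595, 632 and 952 bp on the other chromosomes, and 877.5 bp for MeDIP against 830 bp. Peaks of at least 3 kb were 11 early (1.16%, whole list 1.42%), 8 mid (0.942%, whole list 1.78%), 5 late (6.02%, whole list 4.97%) and 181 MeDIP peaks (3.603%, whole list 2.91%). Of the wide ORCA peaks, 8 early, 5 mid and 4 late ones were on the short arm. MeDIP peaks of this width went the other way, with 25 on the short and 156 on the long arm, 68 of these in segment H.

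Seen from the methylated sites, 618 of the 5024 MeDIP peaks met an ORCA peak of any stage (12.3%, interval 11.4 to 13.2), against 7.73% on the other chromosomes. The share was 2.76% on the short and 16.5% on the long arm, and it was 29.3% in segment E and 31.9% in segment H. An early peak met 6.45% of the MeDIP peaks (whole list 4.6%), a mid peak 8.54% (whole list 6.03%) and a late peak 0.856% (whole list 0.901%). MeDIP peaks that met ORCA had a median width of 1444.5 bp and a median score of 948, and the others 833 bp and 173. Values on the other chromosomes were similar, with 1368 bp and 892 against 808 bp and 172. The arms also differed among the strongest methylated sites: of those with a score of at least 3100, 7 of 79 on the short arm (8.86%, interval 4.36 to 17.2) and 142 of 261 on the long arm (54.4%, interval 48.3 to 60.3) met an ORCA peak. Over the whole of chromosome 17 43.8% of 340 such MeDIP peaks did, against 27.0% of 5149 on the other chromosomes.

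Within 1 methylated site, early and mid ORCA peaks could lie apart. An early and a mid peak met the same MeDIP peak in 143 cases, and in 26 of these the early and mid peaks did not overlap each other (18.2%, against 8.62% on the other chromosomes). In segment H this held for 16 of 42 such MeDIP peaks, in G for 8 of 33, and in B and C for 0 of 20 each. Most ORCA peaks without a MeDIP peak lay more than 1 kb from one. The nearest lay at a median of 9.03 kb for the 606 early, 5.82 kb for the 351 mid and 10.4 kb for the 40 late peaks of this kind. It was within 1 kb for 15.7%, 20.8% and 22.5% of them, and within 5 kb for 41.1%, 46.7% and 40%. On the other chromosomes the medians were 11.7, 10.1 and 8.36 kb. There 14.3%, 17.4% and 16.6% lay within 1 kb, and 36.1%, 39.3% and 42.8% within 5 kb.

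All 3 stages shared 36 regions, 2.26% of the ORCA regions of the chromosome against 3.94% in the whole series. The difference from the other chromosomes was -1.85 points (interval -2.55 to -0.949). They were 493 to 12032 bp wide, with a median of 2024 bp, and 11 were at least 3 kb wide. A MeDIP peak met 25 of the 36 (69.4%, whole series 61.4%). They were spread over the segments as 1 in A, 5 in B, 12 in C, 10 in E, 1 in F, 1 in G and 6 in H. In segment E 8 of the 10 met a MeDIP peak (80%, interval 49.0 to 94.3), whereas 11.3% of its early-only regions did. The 2 classes differed in width there, with medians of 2312 and 801 bp, and the part of width in this was not tested.

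The highest scores of the ORCA lists fell on a few of these regions. The region from 57919163 to 57922753, in segment E, scored 574.88 (early), 902.85 (mid) and 1787.44 (late), the highest late score of the chromosome, and met no MeDIP peak. The region from 80172702 to 80176494, in segment H, had 1112.56, 2404.27 and 1547.49, with the highest mid score. Its highest early, mid and late peaks met no MeDIP peak, and the MeDIP peak of this region met its remaining peak of 4. The region from 31149208 to 31150087, in segment C, had 1297.34, 2140.94 and 1029.01 in 880 bp, with the highest early score, and met a MeDIP peak. These 3 regions held the 3 highest late scores, and the region from 33477901 to 33478591, also in C, came next by mean rank with 421.82, 826.28 and 326.28 and no MeDIP peak. No ORCA peak on chromosome 17 reached 3100, the value shared by the highest peaks of each ORCA list, whereas 340 MeDIP peaks did.

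The widest ORCA region, from 21309348 to 21321379 in segment B, was 12032 bp and held 6 peaks of all 3 stages with scores up to 1013.8. The next, from 21902013 to 21907933, was 5921 bp wide with scores of 857.3 in early and 1159.78 in mid G1 and no late peak. Both lay in the last 1 Mb before the stretch without peaks and each met 3 MeDIP peaks. A further region, 5326 bp wide, lay at the far border of that stretch, from 25263007 to 25268332, with 272.01 in early and 437.98 in mid G1 and no MeDIP peak.

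Regions with peaks of a single list had lower scores. The highest early-only region, from 36385053 to 36386824 in C, had 187.24 and no MeDIP peak, and the next, from 71214678 to 71216009 in G, had 170.37 and none. The highest mid-only region, from 56564666 to 56566061 in E, had 277.3, and the next, from 78450428 to 78451694 in G, had 194.14. The 5 highest mid-only regions each met a MeDIP peak, 4 of them with a score of 3100, and 2 of the 5 highest early-only regions met one. The highest late-only region, from 19091142 to 19092142 in B, had 215.76 and no MeDIP peak. The 5 MeDIP peaks with the highest scores, 3192.27 to 3211.54, met an ORCA peak in 1 case, from 73497785 to 73501412 in G, in early and mid G1.

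Close ORCA peaks were also joined into stretches. Joining neighbours at most 20 kb apart, of any stage, gave 574 stretches, of which 306 held a single peak. At the other extreme, 37 stretches of at least 10 peaks held 761 of the 1883 ORCA peaks (40.4%) in 3.26 Mb. There were 11 such stretches in segment E, 10 in G, 9 in H, 4 in C, 3 in B and 0 in A, D and F. No such count on other chromosomes is given here, so whether this gathering is unusual cannot be told. Peaks of all stages were counted singly, so a shared site counts more than once. The part of peak density in these stretches was not tested.

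The 3 fullest stretches lay in and at the border of segment H. The first, from 78903814 to 79183255, held 31 early, 32 mid and 0 late peaks beside 84 MeDIP peaks that covered 58.8% of it. Of its 63 ORCA peaks 57 met a MeDIP peak (90.5%), yet 2 of its 31 early peaks overlapped a mid peak. The next, from 79762629 to 79989280, held 20 early, 37 mid and 2 late peaks, of which 74.6% met MeDIP, and 5 of the 20 early peaks overlapped a mid peak. The third, from 79247912 to 79559466, held 23 early, 30 mid and 5 late peaks, of which 75.9% met MeDIP, and 3 of the 23 early peaks overlapped a mid peak. Both lists were thus dense over the same methylated ground, and most early peaks of these stretches overlapped no mid peak. Median scores in segment H were 60.8 for early and 67.7 for mid peaks, where the lists hold scores of at least 50. With such low scores and no replicate, a missing overlap cannot tell different sites from sites called in a single list. Whether the stages used different sites was not tested.

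The fourth stretch, from 21193677 to 21254680 in segment B, was of another form. It held 13 early, 16 mid and 7 late peaks in 61.0 kb, with a median width of 1480.5 bp against 497 to 541 bp in the 3 above. Here 11 of 13 early peaks overlapped a mid peak, and 61.1% of the ORCA peaks met MeDIP. The bin around it, from 21 to 22 Mb, held 11 late peaks, more than any other bin of the chromosome. The next by number, from 60691082 to 60824376 in segment E, held 16 early, 18 mid and 1 late peaks, of which 48.6% met MeDIP. Another stretch of segment E, from 59965258 to 60090640, was singled out after its values were seen: its 15 early and 6 mid peaks, with a median width of 899 bp, had no MeDIP peak anywhere in 125 kb, and 3 of the 15 early peaks overlapped a mid peak.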

How the data were processed

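The data are 4 deposited peak lists, ORCA ChIP-seq at early, mid and late G1 and MeDIP-seq, each 1 of 8 samples. The other 4, the inputs, were not analysed here. The submitters' processing notes name Trimmomatic, Bowtie 0.12.7 and the builds GRCh37 and hg19. The authors deposited a score per peak, at least 50 in each list. The late list's name marks its caller with another label, of unstated meaning. The caller's settings, its control, the read depth and the handling of repeats are not given in the sources used here. A peak overlapped when it shared 1 bp or more. Shares have 95% Wilson intervals, differences Newcombe intervals and densities exact Poisson intervals, over counting error only. Depth, and so the precision it gives, is unknown. Bins of 1 Mb counted peak midpoints. Named were the highest-scoring peaks per list, the best regions of all 3 stages and of single stages by rank, the widest regions, the 3 densest bins per list and the 5 fullest stretches. The members and lists were chosen with earlier results of these data known. Segment borders, leaving out segments, chromosomes 7 and 8, and the cut by score were chosen after seeing the data. The planned gene lists were not run, since no gene annotation of hg19 was used here, and no sequence was read. The overlap code was checked on simulated data. Python 3.11.15, numpy 2.4.6, pandas 2.3.3, scipy 1.17.1 and matplotlib 3.10.9 were used.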

Additional observations from a re-analysis of the deposited data

Results flagged for a closer look

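Some peaks that belong to chromosome 17 lay outside the sequence described above. The MeDIP list held 61 peaks on the alternate haplotype sequence of chromosome 17, 3 of them at a score of 3100, and 16 peaks on its unplaced sequences. The ORCA lists held 0 peaks on either, and 0 on such sequences of any chromosome, where the MeDIP list held 938. The intervals left out of the description held 42 MeDIP and 9 early ORCA peaks.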

How the results depend on the processing

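Leaving out replicates was not possible. No paired analysis was possible because each group had 1 sample. Of 181 values under the alternatives, 115 stayed close to the reported ones, 63 moved and 3 turned in direction. One alternative left out runs of narrow, high-scoring peaks, and it removed 0 peaks on chromosome 17. Values of this chromosome alone could not change under it, and they count among those that stayed close. The MeDIP ratio of long to short arm turned from 0.912 to 1.12 by covered bases and to 1.00 in the higher-scoring 50% of the list. For early and mid peaks this ratio stayed above 1, at 2.99 and 2.84 by covered bases and 3.89 and 3.61 in the higher-scoring 50%. The share of early peaks overlapping a mid peak was 29.0% within 1 kb, 42.2% at the length of the late list and 16.2% without the widest 5% of peaks. Its difference from the other chromosomes was -17.9 points in the higher-scoring 50%, -9.40 at equal length and -4.25 without chromosomes 7 and 8. Late peaks overlapped a mid peak in 42.2% at equal length and 50% without the widest peaks.

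For overlap of 50% of the shorter peak, the MeDIP share was 30.0% of early and 51.8% of mid peaks. Within 1 kb it was 46.3% in the early, 67.3% in the mid and 62.7% in the late list. At equal length it was 55.4% of early and 69.9% of mid peaks. Without the widest 5%, of MeDIP too, it was 24.0%, 37.8% and 33.3%, and the late share was 36.6% in the higher-scoring 50%. Without the segment from 79 Mb it was 28.4% of early and 51.0% of mid peaks, and without that from 55 to 62 Mb 41.6% and 63.4%. Weighted to late widths, the early share was 39.7%. The mid difference from the other chromosomes was 4.74 points in the higher-scoring 50%, -1.69 at equal length, 6.29 without the widest peaks, 15.7 without chromosomes 7 and 8 as well as without 55 to 62 Mb, 3.33 without the end from 79 Mb and 2.85 weighted by width. The early difference changed sign, from 1.13 to -6.77 points, without that end, and counts as moved because its reported interval held 0. The mid share was above the early share by 14.5 points at equal length, where the interval of -0.242 to 28.3 holds 0, 13.8 without the widest peaks and 17.6 weighted by width. The fullest stretch held 163 ORCA peaks with neighbours within 50 kb and 26 in the higher-scoring 50%. The cause of these changes was not tested.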
